A study of Drosophila melanogaster with 9 samples.

Results

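The genes described are those of the DNA replication machinery, followed in cultured Drosophila cells depleted of the pausing factor NELF. They were chosen by symbol in the annotation of the array: names starting with Mcm, Orc, DNApol-, PolA, PolE, RPA, RfC, Psf, Cdc45, Cdc6 or Rnr, and the names PCNA, Sld5, dup, geminin and CycE. This rule found 34 of the 11573 named genes, and 30 of them encode replication proteins. The other 4 matched by spelling only: Orct and Orct2 encode organic cation transporters, Orco an odorant co-receptor and Orcokinin a neuropeptide. Of the 30 replication genes, 4 encode subunits of the origin recognition complex, 2 loading factors, 5 the MCM family, 5 Cdc45 and the GINS complex, 5 subunits of DNA polymerases, 4 the sliding clamp and its loader, 3 replication protein A, 1 the large subunit of ribonucleotide reductase and 1 cyclin E. No value is given for geminin, Orc3, Orc6, Mcm7, RnrS or any DNApol- name, which were not analysed here.

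Replication starts from origins that are bound by the origin recognition complex, where Cdc6 and Cdt1 (dup in flies) load the ring-shaped MCM helicase. Cyclin E and its kinase partner drive entry into S phase, and Cdc45 and GINS join MCM to form the active helicase. DNA polymerases then copy the unwound strands, held on by the clamp PCNA, while replication protein A coats the exposed single-stranded DNA. In flies many of these genes are transcribed under E2F and DREF, and their messages are abundant in dividing cells such as cell lines.

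Transcript levels came from 9 single-channel Affymetrix Drosophila Genome 2.0 arrays of S2 cells, a hemocyte-like line of embryonic origin grown in medium with 10% fetal bovine serum. The arrays form 3 groups of 3: cells left untreated, cells given double-stranded RNA (dsRNA) against LacZ, a bacterial gene, and cells given dsRNA against NELF, each dsRNA for 72 h. NELF, the negative elongation factor, keeps RNA polymerase II paused shortly after it starts transcription, and LacZ dsRNA controls for the addition of dsRNA. All 3 groups are a single cell line, and the labels do not say whether replicates are separate cultures. The p-values therefore cover the spread between samples, which could be technical.

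Between 13854 and 14196 probe sets were measured per array and between 8010 and 8059 lay above a detection limit of 3.77 on the log2 scale, the 95th percentile of 95 control probe sets. NELF-B, a NELF subunit, averaged 7.24 in untreated cells, 7.50 after LacZ dsRNA and 4.71 after NELF dsRNA (log2 intensity, n = 3 each), and Nelf-E averaged 7.87, 7.75 and 3.33, the last below the limit. TH1, a further NELF subunit, averaged 8.04, 8.15 and 8.10, and its difference between NELF and LacZ dsRNA did not pass (-0.05, limma adjusted p = 0.876). Of 10 hemocyte markers 7 had a mean above the limit in all groups, and Sr-CI, NimC1 and He did not. The phagocytic receptor gene eater averaged 6.81, 6.56 and 3.90 in the same order of groups, and NELF dsRNA array 3 read 2.89, below the limit. It fell against LacZ dsRNA (-2.66, limma adjusted p = 0.000685) and untreated cells (-2.91, limma adjusted p = 0.000242). Of 18 alternatives, 1 lost the call against LacZ dsRNA, the fit without the mean-variance trend (limma adjusted p = 0.0642). The call against untreated cells was kept under all 18. Pxn, a peroxidase gene, rose by 0.88 against LacZ dsRNA (limma adjusted p = 0.000131, and 0.182 against untreated), a direction that turned when its probe sets were averaged (-0.388). The GATA factor gene srp rose by 0.34 against untreated (limma adjusted p = 0.0357, and 0.797 against LacZ dsRNA), a call lost under 9 of 18 alternatives, among them without untreated array 1 or 2, LacZ dsRNA array 2 or NELF dsRNA array 1 or 3 (adjusted p up to 0.158). The summed level of the 10 hemocyte markers ran from 11.82 to 11.87 on the log2 scale over the untreated arrays, 11.82 to 12.0 over LacZ dsRNA and 11.97 to 12.1 over NELF dsRNA. Of 9 markers of other cell types found, elav and PPO2 had a mean above the limit in all groups. The summed level of those 9 ran from 7.36 to 7.80 on the log2 scale over the untreated arrays, 7.23 to 7.51 over LacZ dsRNA and 7.16 to 7.43 over NELF dsRNA. The part of either marker list in the results was not tested.

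All 30 replication genes had 1 probe set each, a value on all 9 arrays and no value below the detection limit. Their log2 intensities ran from 6.32 (Cdc6 after NELF dsRNA) to 11.67 (PCNA in untreated cells), and all 30 entered every comparison. Levels of different genes are not compared, since probe sets differ in how strongly they bind. The 3 group means of a gene lay 0.15 apart on the log2 scale at the median, with a range from 0.0056 to 0.40. NELF dsRNA had the highest of the 3 means in 12 genes, untreated cells in 10 and LacZ dsRNA in 8. The standard deviation within a group was 0.13 at the median over these genes, and 0.11 over the 5610 probe sets at least as bright as the dimmest of them.

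NELF dsRNA against LacZ dsRNA asks which messages change when NELF is depleted. Among the replication genes, RPA1, the large subunit of replication protein A, rose 1.20-fold and CycE, the cyclin of S phase entry, fell 1.24-fold. The other 28 did not pass the test at an adjusted p under 0.05 (limma, Benjamini-Hochberg over 12975 probe sets). They include all members for origin recognition, helicase loading, the helicase itself and the polymerases, although these complexes have subunits outside the 30. The calls are thus 2 of 30, where 4.56% of all probe sets tested passed (1.85% higher and 2.71% lower), and 8.45% of those as bright as the dimmest replication gene. In bulk RNA, fewer cells in S phase and less RNA per cell cannot be told apart.

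**Figure D1:**
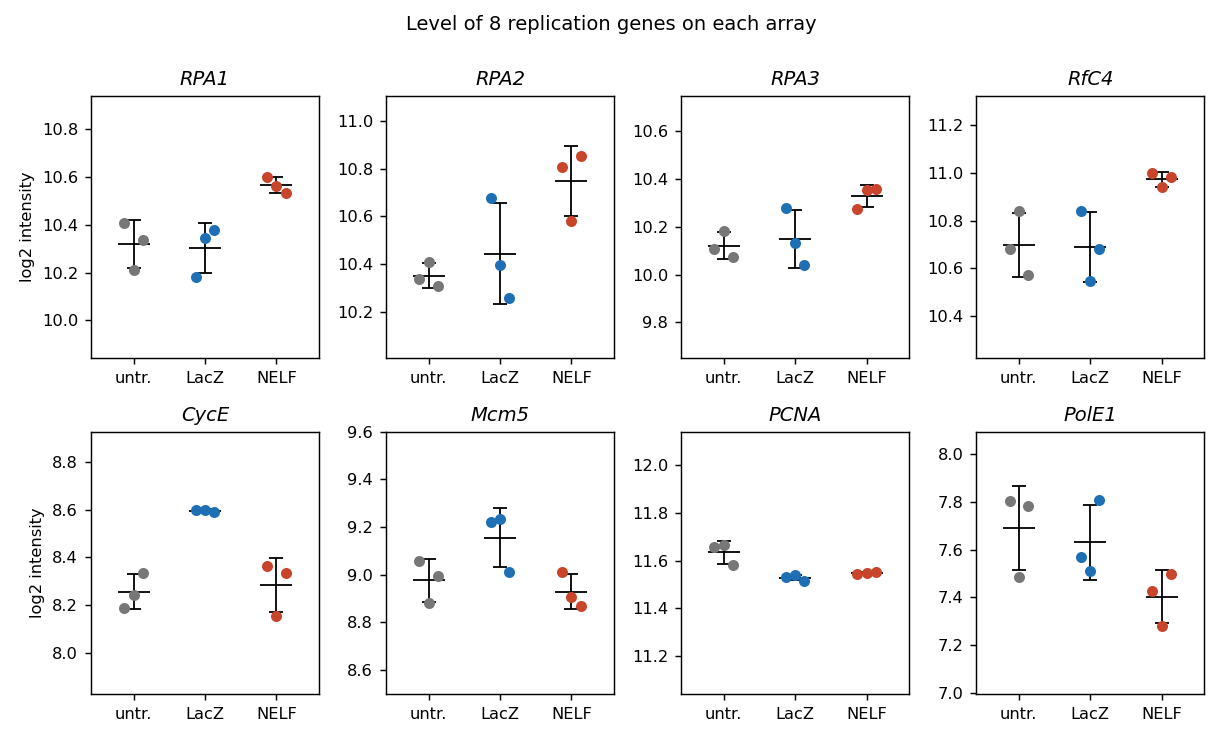
Log2 intensity of 8 replication genes on each of the 9 arrays (points), with the mean and SD of each group of 3 arrays (bars); all panels span the same number of log2 units. RPA1 and RfC4 are higher on every NELF dsRNA array than on any control array, as are 6.31% of all probe sets. CycE is higher on every LacZ dsRNA array than on any other, and the share of all probe sets with this pattern was not counted.

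Replication protein A, the single-strand binding complex, was measured through all 3 of its genes. RPA1 read 10.41, 10.21 and 10.34 in untreated cells, 10.18, 10.35 and 10.38 after LacZ dsRNA, and 10.60, 10.56 and 10.53 after NELF dsRNA. All 3 NELF dsRNA arrays lay above all 6 control arrays, which overlapped each other. Over all probe sets tested, 6.31% lay wholly above the 6 controls in this way, and 8.57% of those as bright. Against LacZ dsRNA the rise of RPA1 was 0.26 on the log2 scale (SE 0.07, 95% interval 0.11 to 0.41, limma adjusted p = 0.0461). RPA2, the middle subunit, read 10.34, 10.41 and 10.31 in untreated cells, 10.68, 10.40 and 10.26 after LacZ dsRNA, and 10.81, 10.58 and 10.85 after NELF dsRNA. LacZ dsRNA array 1 reached into the range of the NELF dsRNA arrays, and the difference of 0.30 (SE 0.10) did not pass (limma adjusted p = 0.104). RPA3, the small subunit, averaged 10.12 ± 0.06, 10.15 ± 0.12 and 10.33 ± 0.05 (SD, n = 3) in the same order of groups. Its difference from LacZ dsRNA was 0.18 (SE 0.07, limma adjusted p = 0.212), and 1 LacZ dsRNA array again overlapped.

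The call of RPA1 lay close to the threshold. It was lost under 14 of 18 alternatives, with adjusted p from 0.036 to 0.275, and among them on leaving out untreated array 1 or 3, LacZ dsRNA array 1 or 2, or any 1 of the NELF dsRNA arrays (adjusted p up to 0.134 without 1 array). Leaving out LacZ dsRNA array 1 instead brought RPA2 (log2 change 0.42, adjusted p = 0.00619), RPA3 (0.25, adjusted p = 0.0311) and RfC4 (0.36, adjusted p = 0.0103) past the threshold, and leaving out NELF dsRNA array 2 did so for RPA2 (0.39, adjusted p = 0.0493). RPA1 lies next to Mcm2 in the RefSeq Release 6 gene table, and the helicase gene Mcm2 differed by -0.03 in the same comparison (95% interval -0.19 to 0.13).

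Cyclin E gave the lower call. CycE read 8.19, 8.24 and 8.33 in untreated cells, 8.60, 8.60 and 8.59 after LacZ dsRNA, and 8.36, 8.15 and 8.34 after NELF dsRNA. The LacZ dsRNA arrays stood above all 6 others, while the untreated and NELF dsRNA arrays overlapped. Over all probe sets, LacZ dsRNA lay wholly above untreated in 9.62% and NELF dsRNA wholly below LacZ dsRNA in 11.5%. The share with both was not counted. Against LacZ dsRNA, CycE fell by 0.31 on the log2 scale after NELF dsRNA (SE 0.08, 95% interval -0.49 to -0.13, limma adjusted p = 0.0473). Against untreated cells the NELF dsRNA mean differed by 0.03 (SE 0.08, 95% interval -0.15 to 0.21, limma adjusted p = 0.903). LacZ dsRNA averaged 0.34 above untreated (SE 0.08, limma adjusted p = 0.14), so the size of the NELF dsRNA difference depends on which control is used, and the comparisons share arrays. The call against LacZ dsRNA was lost under 15 of 18 alternatives, including the removal of any 1 of the 9 arrays, which gave adjusted p from 0.0573 to 0.196.

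The clamp and its loader were measured through PCNA and the clamp loader genes RfC3, RfC4 and RfC38. RfC4 read 10.68, 10.84 and 10.57 in untreated cells, 10.84, 10.55 and 10.68 after LacZ dsRNA, and 10.998, 10.94 and 10.98 after NELF dsRNA. As with RPA1, the 3 NELF dsRNA arrays lay above all 6 control arrays (2 of 30 genes, against 6.31% of all probe sets). The difference from LacZ dsRNA was 0.28 (SE 0.08, 1.22-fold, limma adjusted p = 0.0617), just outside the threshold, and passed on leaving out untreated array 2 (adjusted p = 0.0486) or LacZ dsRNA array 1 (adjusted p = 0.0103). RfC3 and RfC38 differed by 0.08 and 0.13 and their groups overlapped. PCNA, the sliding clamp, read 11.66, 11.67 and 11.58 in untreated cells, 11.53, 11.54 and 11.52 after LacZ dsRNA and 11.55 on each of the NELF dsRNA arrays. Its untreated arrays were the highest and its NELF dsRNA arrays lay just above the LacZ dsRNA arrays, but the NELF dsRNA mean differed from LacZ dsRNA by 0.02 (95% interval -0.09 to 0.13).

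The origin recognition complex showed no call in any of the 4 genes measured. Orc5, the gene of this group with the smallest adjusted p, read 7.39, 7.06 and 6.88 in untreated cells, 7.08, 6.97 and 6.99 after LacZ dsRNA, and 7.31, 6.96 and 7.27 after NELF dsRNA. The 3 groups overlapped, and the NELF dsRNA mean was 0.17 above LacZ dsRNA (SE 0.14, 1.12-fold, limma adjusted p = 0.676). Orc1, which carries an ATPase domain, differed by -0.01, Orc2 by 0.11 and Orc4 by -0.03, and all 4 intervals lay within 0.5 of 0.

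The loading factors were likewise without a call. The Cdt1 gene dup read 8.60, 8.48 and 8.48 in untreated cells, 8.49, 8.43 and 8.65 after LacZ dsRNA, and 8.51, 8.33 and 8.42 after NELF dsRNA. These ranges overlapped, and NELF dsRNA differed from LacZ dsRNA by -0.10 (SE 0.08, 1.07-fold, limma adjusted p = 0.658). Cdc6, which loads MCM together with dup, differed by 0.01 with an interval from -0.33 to 0.35, the widest of the 30.

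Among the MCM genes, Mcm5, a helicase subunit, stood out from its control group without passing. Mcm5 read 9.06, 8.88 and 8.99 in untreated cells, 9.22, 9.23 and 9.01 after LacZ dsRNA, and 9.01, 8.91 and 8.87 after NELF dsRNA. The NELF dsRNA arrays lay below the LacZ dsRNA arrays, the nearest pair at the same value to 2 decimals, and largely inside the untreated range. The difference from LacZ dsRNA was -0.23 (SE 0.08, 1.17-fold, limma adjusted p = 0.173), and that from untreated was -0.05 (SE 0.08). The helicase subunit genes Mcm3 and Mcm6 differed from LacZ dsRNA by 0.08 and -0.06, and Mcm10, which encodes a separate replication initiation factor, by -0.21 (95% interval -0.47 to 0.05).

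Cdc45 and the GINS genes Psf1, Psf2, Psf3 and Sld5 complete the active helicase. Sld5 read 7.91, 7.94 and 7.65 in untreated cells, 8.11, 7.74 and 7.51 after LacZ dsRNA, and 7.93, 8.09 and 8.08 after NELF dsRNA. The LacZ dsRNA arrays were the most spread, and the groups overlapped. The difference from LacZ dsRNA was 0.25 (SE 0.14, 1.19-fold, limma adjusted p = 0.445). Psf1 differed by -0.05, Psf2 by 0.13, Psf3 by 0.02 and Cdc45 by 0.01.

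Polymerase genes were represented by PolA1 and PolA2, subunits of the polymerase alpha that starts new strands, and by PolE1, PolE2 and PolE4 of polymerase epsilon, the leading-strand enzyme. The catalytic subunit gene PolE1 read 7.80, 7.49 and 7.78 in untreated cells, 7.57, 7.51 and 7.81 after LacZ dsRNA, and 7.43, 7.28 and 7.50 after NELF dsRNA. All NELF dsRNA arrays lay below the LacZ dsRNA arrays, but array 3 overlapped the lowest untreated array. The differences were -0.23 from LacZ dsRNA (SE 0.12, 1.17-fold, limma adjusted p = 0.409) and -0.29 from untreated (SE 0.12, limma adjusted p = 0.209). PolA1, PolA2, PolE2 and PolE4 differed from LacZ dsRNA by -0.04, 0.21, -0.08 and -0.01.

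The large subunit of ribonucleotide reductase, the enzyme that makes deoxynucleotides, is encoded by RnrL. It read 10.35, 10.18 and 10.23 in untreated cells, 10.17, 10.28 and 10.49 after LacZ dsRNA, and 10.41, 10.31 and 10.41 after NELF dsRNA. The groups overlapped, and the difference from LacZ dsRNA was 0.06 (SE 0.08, 1.04-fold, limma adjusted p = 0.797).

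Beyond the calls, most replication genes were held to narrow intervals. In NELF dsRNA against LacZ dsRNA, 27 of 30 had a 95% interval within 0.5 of 0 on the log2 scale, against 37.8% of all probe sets tested and 82.9% of those as bright. The other 3, Sld5, PolA2 and RPA2, reached 0.54, 0.54 and 0.51. The median change was 0.01, the same to 2 decimals as over all probe sets, and 17 of 30 lay above 0 (51.1% of all probe sets).

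**Figure D2:**
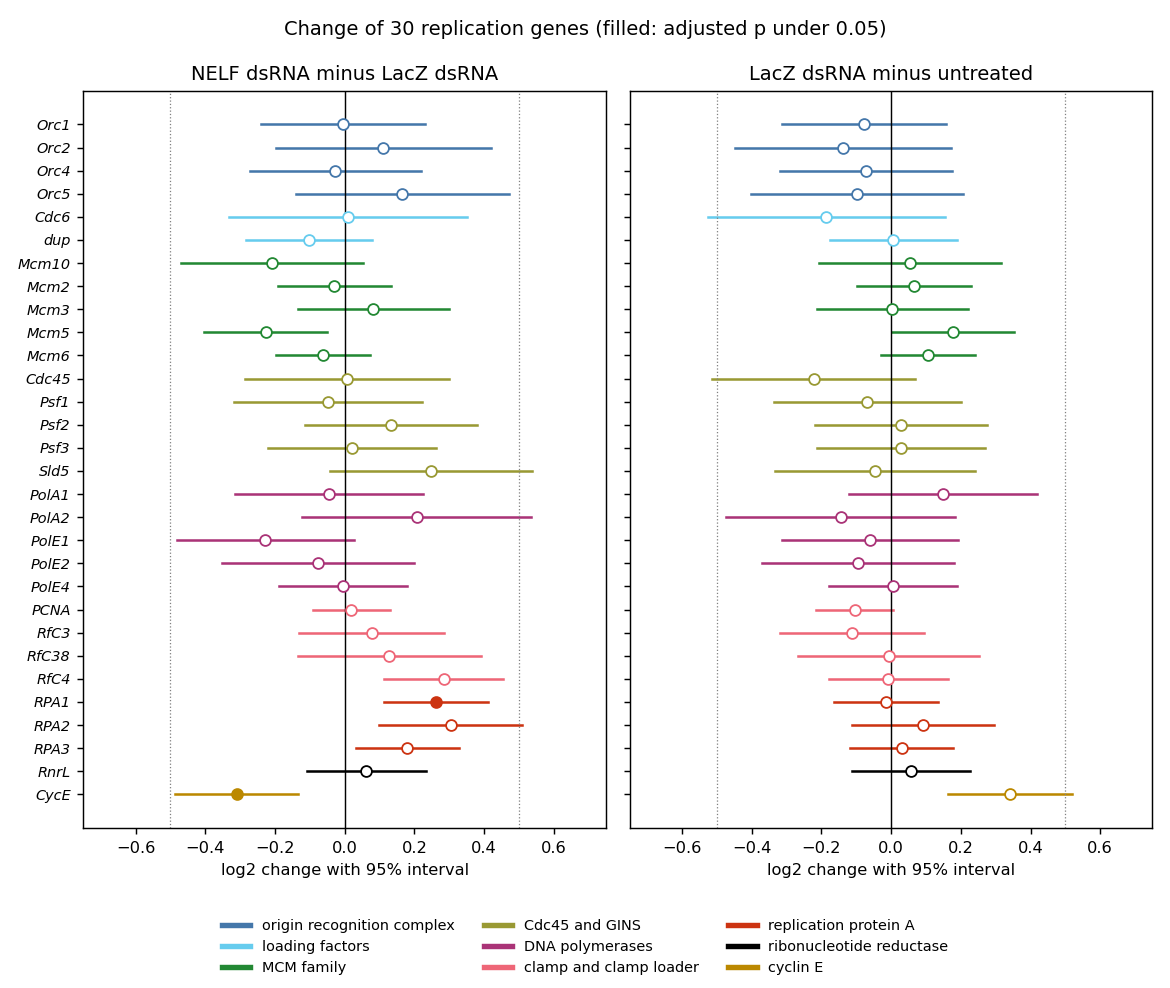
Log2 change of each of the 30 replication genes (points) with its 95% interval (lines), coloured by role, for NELF dsRNA minus LacZ dsRNA on the left and LacZ dsRNA minus untreated on the right; dotted lines mark 0.5. RPA1 and CycE are filled on the left, no gene is filled on the right, and 27 intervals stay inside the dotted lines in each panel.

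At an unadjusted p under 0.05, 4 replication genes were higher (RPA1, RPA2, RPA3 and RfC4) and 2 lower (Mcm5 and CycE) after NELF dsRNA. This is 13.3% and 6.67% of the 30, against 7.17% and 7.74% of all probe sets and 12.2% and 11.7% of those as bright. The 3 NELF dsRNA arrays lay wholly above the 3 LacZ dsRNA arrays in RPA1, RfC4 and PCNA and wholly below in Mcm5, PolE1 and CycE, which is 10.0% of the genes each way. Over all probe sets these shares were 11.1% and 11.5%. Each of these shares of replication genes lies within 2 genes of the background over all probe sets.

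**Figure D3:**
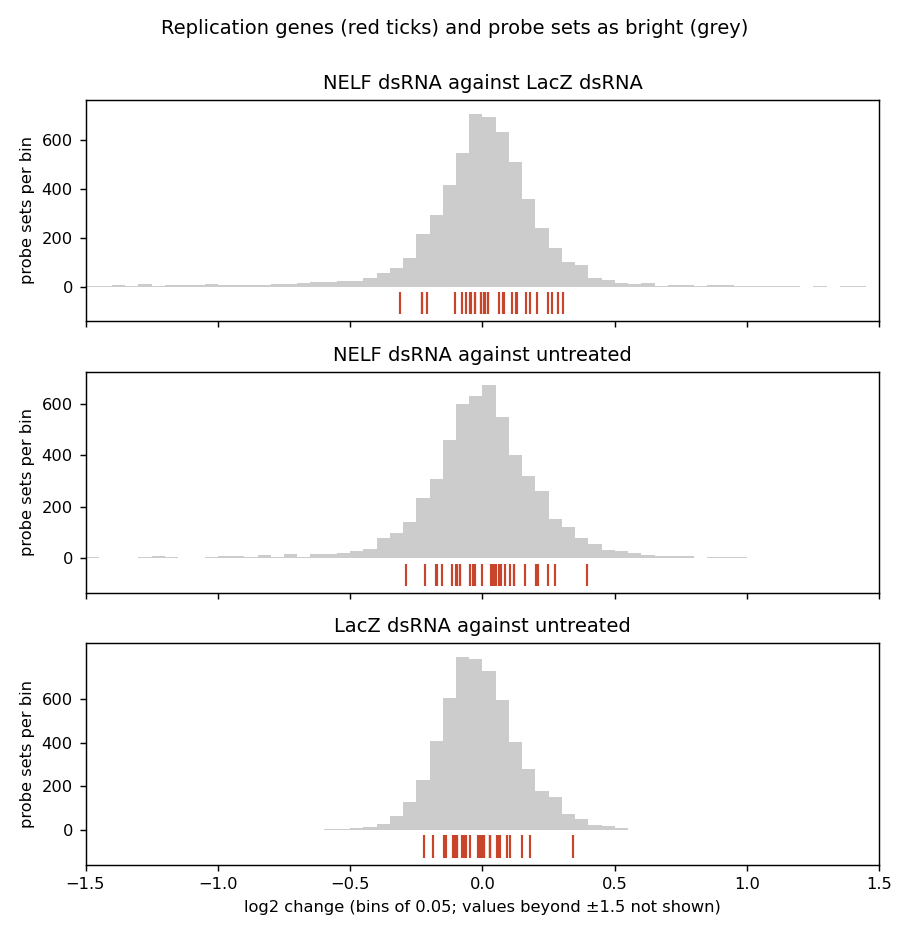
Log2 change of the 30 replication genes (red ticks) under the counts of the 5610 probe sets at least as bright as the dimmest of them (grey, bins of 0.05), in the 3 pairwise comparisons; changes beyond 1.5 are not drawn. The replication genes run from -0.31 to 0.30 in NELF dsRNA against LacZ dsRNA and sit in the body of each distribution.

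NELF dsRNA against untreated cells shares its NELF dsRNA arrays with the comparison above. Here RPA2 was the 1 replication gene of 30 to pass, where 6.16% of all probe sets tested did (2.63% higher, 3.53% lower, and 11.4% of those as bright). RPA2 rose by 0.40 on the log2 scale (SE 0.10, 1.32-fold, 95% interval 0.19 to 0.60, limma adjusted p = 0.0221), with all 3 NELF dsRNA arrays above all 3 untreated arrays. RPA1 (0.25, limma adjusted p = 0.0512), RfC4 (0.28, limma adjusted p = 0.0586) and RPA3 (0.21, limma adjusted p = 0.0997) did not pass, although their arrays did not overlap either. Together with PCNA, whose NELF dsRNA arrays were lower, that is 4 genes without overlap in the higher direction and 1 in the lower, against 14% and 14.4% of all probe sets. At an unadjusted p under 0.05 the same 4 genes were higher and PolE1 lower (8.62% and 8.98% of all probe sets). Of the 30 intervals, 26 lay within 0.5 of 0, against 36.3% of all probe sets and 80.2% of those as bright. The intervals of Cdc6, Cdc45, PolE1 and RPA2 did not. The call of RPA2 was lost on leaving out untreated array 1 or 3 or NELF dsRNA array 1 or 3 (adjusted p up to 0.103), while leaving out LacZ dsRNA array 1 from the shared estimate of spread raised the count to 4. It was 2 without untreated array 2, which added RfC4 (adjusted p = 0.025), and 2 without LacZ dsRNA array 3, which added RPA1 (adjusted p = 0.044).

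LacZ dsRNA against untreated compares the control groups, where the addition of dsRNA and any other difference in handling cannot be told apart. No replication gene passed by limma, where 7 of 12974 probe sets did (0.054%, of which 0.0462% higher and 0.00771% lower). At an unadjusted p under 0.05, Mcm5 (0.18) and CycE (0.34) were higher and none was lower, against 5.3% and 5.14% of all probe sets. The LacZ dsRNA arrays lay wholly above the untreated arrays in CycE and Mcm6 and wholly below in PCNA (9.62% and 10.2% of all probe sets). Of the 30 intervals 27 lay within 0.5 of 0, against 40.7% of all probe sets and 89.2% of those as bright. The exceptions were Cdc6, Cdc45 and CycE.

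With untreated and LacZ dsRNA taken as 1 control group of 6 arrays, any difference between the controls counts as spread. The SE of RPA1 was 0.062 (0.070 against LacZ dsRNA alone), and that of CycE was 0.105 (0.083 against LacZ dsRNA alone). In this comparison 3 of 30 replication genes passed. All were higher after NELF dsRNA. Of 13990 probe sets 5.31% passed (2.19% higher and 3.12% lower). Among those as bright 10.1% passed (4.67% higher), near the 10.0% of the replication genes. The 3 genes were RPA1 (0.26, limma adjusted p = 0.0216), RPA2 (0.35, limma adjusted p = 0.021) and RfC4 (0.28, limma adjusted p = 0.0249). They encode the large and middle subunits of replication protein A and a clamp loader subunit. The third RPA gene, RPA3, differed by 0.20 (limma adjusted p = 0.0948) and CycE by -0.14 (limma adjusted p = 0.624). Of the 30 intervals 29 lay within 0.5 of 0, against 37% of all probe sets and 85.5% of those as bright. No replication gene passed without NELF dsRNA array 1 or without array 3, 1 passed without NELF dsRNA array 2 and 4 without LacZ dsRNA array 1. The call of RfC4 was also lost without untreated array 3 or LacZ dsRNA array 2, and all these comparisons share arrays.

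The genes around the machinery were followed in 5 lists. Chromatin assembly held the only calls against LacZ dsRNA among 63 genes tested: Ssrp rose and asf1 fell. Against untreated cells 5 of 64 passed, Ssrp and mip40 higher and Ts, Paics and abo lower, and in LacZ dsRNA against untreated none of 63 passed by limma (6 higher and 5 lower at an unadjusted p under 0.05, where 5.3% and 5.14% of all probe sets were). Leaving out 1 array moved the count against LacZ dsRNA to 0 (LacZ dsRNA array 2, NELF dsRNA array 1 or 3), 1 (any untreated array, LacZ dsRNA array 3 or NELF dsRNA array 2) or 4 (LacZ dsRNA array 1). Against untreated it was 1 to 3 without any 1 untreated or NELF dsRNA array and 5 without any 1 LacZ dsRNA array, and between the controls it was 1 without untreated array 1. The share of all probe sets that passed in these comparisons is given above (4.56%, 6.16% and 0.054%).

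**Figure D4:**
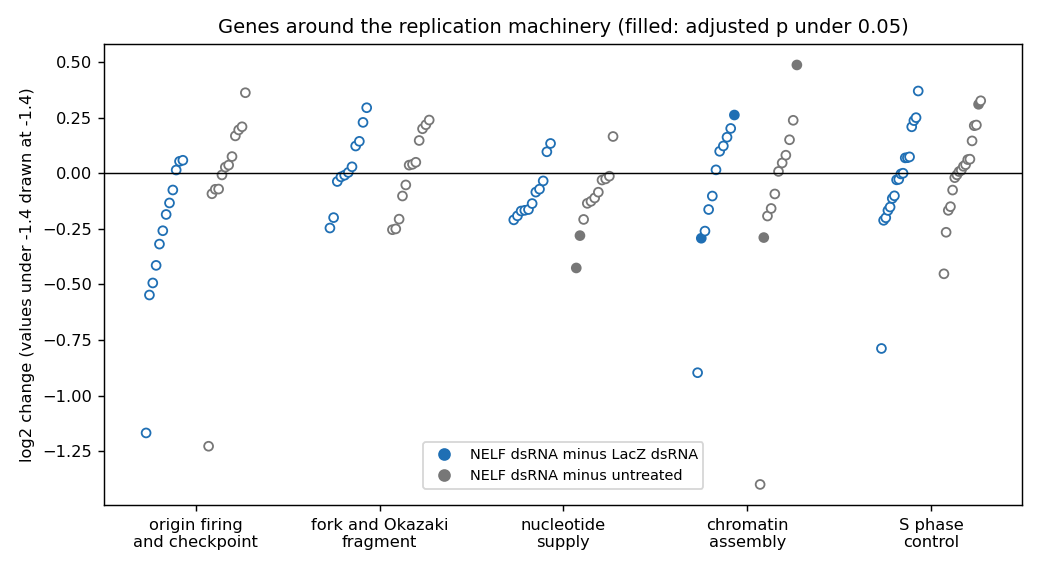
Log2 change of each gene in 5 lists around the replication machinery, for NELF dsRNA minus LacZ dsRNA (blue) and NELF dsRNA minus untreated (grey); filled points have an adjusted p under 0.05, and 1 value under -1.4 is drawn at -1.4. The filled points are Ssrp and asf1 in blue and Ssrp, abo, Ts, Paics and mip40 in grey.

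Ssrp encodes a subunit of the histone chaperone FACT, which acts at forks and in transcription. It read 9.27, 9.30 and 9.30 in untreated cells, 9.49, 9.47 and 9.58 after LacZ dsRNA, and 9.76, 9.77 and 9.80 after NELF dsRNA. The 3 groups did not overlap, with untreated lowest and NELF dsRNA highest. It rose by 0.26 against LacZ dsRNA (SE 0.06, limma adjusted p = 0.0228) and by 0.49 against untreated (SE 0.06, limma adjusted p = 0.000114). The first of these calls was lost without LacZ dsRNA array 2 or any NELF dsRNA array (adjusted p up to 0.0939), and the second under none of the 18 alternatives. The other FACT subunit gene, dre4, differed from LacZ dsRNA by 0.10 and from untreated by 0.24 (limma adjusted p = 0.768 and 0.303).

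The histone chaperone gene asf1, which hands histones H3 and H4 to assembly factors, averaged 9.51 in untreated cells, 9.61 after LacZ dsRNA and 9.31 after NELF dsRNA. It fell by 0.29 against LacZ dsRNA (SE 0.08, limma adjusted p = 0.0497), and of the 9 single arrays only the removal of LacZ dsRNA array 1 kept the call. The gene abo, a regulator of histone genes in flies, fell by 0.29 against untreated (SE 0.07, limma adjusted p = 0.0247), a call lost without any 1 of the untreated or NELF dsRNA arrays.

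Nucleotide supply had no call among 11 genes against LacZ dsRNA and 2 lower against untreated. Over all probe sets, 3.53% were called lower against untreated. Ts, thymidylate synthase, fell by 0.28 (SE 0.08, limma adjusted p = 0.039), a call lost without any 1 of the untreated or NELF dsRNA arrays. Paics, an enzyme of purine synthesis, fell by 0.43 (SE 0.10, limma adjusted p = 0.0211), a call lost without untreated array 1 or 2 or NELF dsRNA array 2 (adjusted p up to 0.107). Against LacZ dsRNA they differed by -0.16 and -0.21.

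S phase control had no call among 18 genes against LacZ dsRNA and 1 against untreated, where 2.63% of all probe sets were called higher. The gene was mip40, a subunit of the Myb-containing repressor complex, which rose by 0.31 (SE 0.08, limma adjusted p = 0.0225). That call was lost without untreated array 2 or 3 or NELF dsRNA array 2 or 3. Cdk2, the kinase partner of cyclin E, was 0.37 above LacZ dsRNA (limma adjusted p = 0.153) and 0.03 above untreated. The transcription factor genes E2f2 and Dref differed from LacZ dsRNA by 0.07 and -0.11.

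Origin firing and checkpoint genes (12 tested) and fork, Okazaki fragment and topoisomerase genes (11 tested against LacZ dsRNA) gave no call by limma in any pairwise comparison. Against LacZ dsRNA, 1 gene of each list was lower at an unadjusted p under 0.05, where 7.74% of all probe sets were. The fork list holds dpa, the fly Mcm4 helicase subunit, which differed by -0.01, and Gnf1, the large clamp loader subunit, which differed by 0.00. The checkpoint kinase gene mei-41 had the most negative change of the first list, -1.17 (limma adjusted p = 0.22), and was not above the detection limit in all groups.

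The 4 genes matched by spelling passed in no comparison. The NELF dsRNA mean of Orct differed by -0.17 from LacZ dsRNA and by -0.29 from untreated (limma adjusted p = 0.372 and 0.0557), and its neighbour Orct2 was 0.36 and 0.34 higher (limma adjusted p = 0.291 and 0.292). Orco and Orcokinin, expressed in neurons, had group means from 2.32 to 3.82, around or below the detection limit.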

How the data were processed

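The authors deposited 1 log2 intensity per probe set and array. The log2 base was inferred from the values. Arrays were read with GeneChip Operating Software 1.2.0.037 and imported into Rosetta Resolver 6.0, per the labels and the series' design text. How probes were summarized and arrays normalized is not given in the sources used here. Empty cells (21.2% outside control probe sets) were kept missing, and no normalization was added, since medians over the 9266 complete probe sets lay within 0.0253. Probe sets were named by the platform annotation, and those with several genes named none.

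Group means were compared by limma 3.58.1 under R 4.3.3 (lmFit, eBayes with a mean-variance trend, 9 arrays, at least 2 values per group), with Benjamini-Hochberg adjustment over all probe sets tested and a threshold of 0.05. The procedure was tested on simulated data with planted changes larger than any seen in the replication genes. Its power at the sizes seen in these genes was not tested. The number of arrays limits the precision, and no batch was tested.

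Array values, folds, SE and adjusted p are given for genes that passed a pairwise comparison and, in each role, the gene with the smallest adjusted p against LacZ dsRNA; from each surrounding list, up to 4 genes that passed. RPA3, PCNA and other genes given by their values were added after those were seen. The members and lists were chosen with earlier results of these data known. The 18 alternatives changed the prior, normalization, floor, filters, probe set choice, samples and replicate block, or left out arrays.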

Additional observations from a re-analysis of the deposited data

How the results depend on the processing

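No called replication gene changed direction under the 18 alternatives. Of the 2 calls against LacZ dsRNA, none was left without the variance trend, with a floor at the detection limit, with the replicate block, with only the arrays compared or with probe sets averaged per gene, and 1 was left after quantile normalization. Leaving out 1 array gave 0 to 3. Against untreated cells the count of 1 became 0 without the trend or with the floor, 2 after quantile normalization, with 1 probe set per gene or without the pair of arrays with the fewest values (LacZ dsRNA 1, NELF dsRNA 3), 3 on probe sets complete over 9 arrays and 4 with only the arrays compared; leaving out 1 array gave 0 to 4. Against all 6 controls the count of 3 became 0 without the trend and 1 with the floor, and 0 to 4 without 1 array. LacZ dsRNA against untreated stayed at 0 under every alternative. The cause was not tested.

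Over all probe sets, leaving out the trend gave 228 in place of 592 against LacZ dsRNA, 356 in place of 799 against untreated and 1 in place of 7 between the controls. Leaving out 1 array gave 426 to 697, 534 to 996 and 2 to 18. The 7 became 4 with the floor, 12 with 1 probe set per gene and 22 without that pair of arrays. Averaging probe sets turned the hemocyte gene Pxn, higher after NELF dsRNA by its brightest probe set, to -0.388 against LacZ dsRNA and -0.0849 against the controls. With the replicate block the counts over all probe sets were 529, 733 and 9. Whether the shared replicate numbers pair the samples is not known. None of 9 same-numbered pairs had deviations from their group means correlated above 0.1 (-0.108 to 0.097, and -0.150 to 0.185 between unlike numbers). Of 9 arrays, 4 correlated best with their own number. Deviations within a group sum to 0, which ties these correlations to each other, so they cannot exclude pairing.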

Other observations

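The 4 GINS genes Psf1, Psf2, Psf3 and Sld5 shared their order across the LacZ dsRNA arrays, a pattern seen in the values and not tested. In each of them array 1 was highest and array 3 lowest, by 0.57 between the extremes in Psf1 and 0.60 in Sld5 on the log2 scale. RPA2, RPA3, PolE4, RfC3 and Orc4 had the same order, 9 of the 30 replication genes in all. Among the 5610 probe sets at least as bright, 28.1% had it too, so the share of 30% lies near the background.

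Within the NELF dsRNA group 11 of 30 replication genes (36.7%) were highest on array 1 and lowest on array 2, against 13.1% of the probe sets as bright. Within the untreated group 11 of 30 were highest on array 1 and lowest on array 2, against 18.7%. The choice of these array orders was made after the values were seen.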
